A study of Mus musculus with 22 samples.

Results

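The genes described here are 10 regulators of the step from G1 into S phase: the inhibitors Cdkn2a, Cdkn2b, Cdkn2c, Cdkn1b and Cdkn1c, the cyclins Ccnd1, Ccnd2, Ccnd3 and Ccne1, and the retinoblastoma gene Rb1. They were taken by symbol from a pair of deposited expression tables, and all 10 were found among 23993 symbols of the first table and among 23490 symbols of the second. The first table held 16 RNA sequencing libraries of mouse mammary cells: 7 allografts of CRC-grown cells, 3 allografts of EpiC-grown cells, 3 CRC cultures and 3 EpiC cultures. CRC stands for conditional reprogramming, in which epithelial cells are usually kept with irradiated fibroblast feeders. EpiC is the labels' name for a medium optimised for mammary epithelium. The second table held 2 CRC cultures and 2 EpiC cultures grown from mammary cancers, and the 2 primary cancers themselves.

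Every donor, whatever its group, was a nulliparous C57Bl/6 female with 1 mutant Trp53 allele. CYP19A1 donors carried a tetracycline-inducible aromatase gene under MMTV-rtTA together with MMTV-Cre. Brca1hom donors had 2 conditional Brca1 alleles and Brca1het donors had 1, both with MMTV-Cre. The MMTV promoter acts mainly in mammary epithelium, so a conditional allele is cut in some cells of the gland and not in others. Culture 1 of each medium was CYP19A1, culture 2 Brca1het and culture 3 Brca1hom, with 1 culture per genotype and medium. The CRC allografts comprised 1 from CYP19A1 cells (6C), 3 from Brca1het cells (10B, 10C, 11C) and 3 from Brca1hom cells (1, 2, 12). Among the EpiC allografts 7B came from CYP19A1 cells, 4C and 5A from Brca1het cells, and none from Brca1hom cells. Allografts grew in the mammary gland of nude (Foxn1nu) mice, which lack mature T cells but keep macrophages, B cells and natural killer cells. Both cancers were Brca1het, and their titles share a number, so 1 animal may have given both. Libraries of different genotype came from different donors. Nothing in the labels ties libraries of the same group and genotype to different mice or dishes, so the spread among those may be technical. Between CRC and EpiC cultures of the first table, the spread behind a p-value is how the difference between media varied between genotypes. Esr1-overexpressing and wild-type mice, which the series also names, were not analysed here.

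D-type cyclins bind the kinases CDK4 and CDK6, and the complexes phosphorylate RB, the product of Rb1, which then releases E2F transcription factors. The INK4 proteins bind CDK4 and CDK6 and block them, while the Cip/Kip proteins p27 (Cdkn1b) and p57 (Cdkn1c) bind cyclin-kinase complexes, above all those of cyclin E with CDK2. Cdkn2a encodes the INK4 protein p16Ink4a and, from a separate upstream first exon read in another frame, p19Arf, which stabilises p53. In the mammary gland cyclin D1 is needed for lobuloalveolar growth, and p16Ink4a accumulates in cultured epithelium as it stops dividing.

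The 2 starts of Cdkn2a are shown because the deposited gene-level values add both transcripts together and cannot tell p16Ink4a from p19Arf. The RefSeq windows run from 250 bases before to 50 bases after a start, in build GRCm38.p6, on the minus strand of chromosome 4. The window of the distal start, which serves p19Arf, is chr4:89294570-89294869, and that of the proximal start, which serves p16Ink4a, is chr4:89282143-89282442. Capitals mark an E2F motif.
Cdkn2a distal start: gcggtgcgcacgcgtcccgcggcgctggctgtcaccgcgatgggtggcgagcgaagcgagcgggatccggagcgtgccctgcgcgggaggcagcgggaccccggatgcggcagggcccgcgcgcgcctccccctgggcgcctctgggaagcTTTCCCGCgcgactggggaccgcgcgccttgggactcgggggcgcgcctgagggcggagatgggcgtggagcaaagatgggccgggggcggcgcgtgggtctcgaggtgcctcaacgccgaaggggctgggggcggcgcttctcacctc
Cdkn2a proximal start: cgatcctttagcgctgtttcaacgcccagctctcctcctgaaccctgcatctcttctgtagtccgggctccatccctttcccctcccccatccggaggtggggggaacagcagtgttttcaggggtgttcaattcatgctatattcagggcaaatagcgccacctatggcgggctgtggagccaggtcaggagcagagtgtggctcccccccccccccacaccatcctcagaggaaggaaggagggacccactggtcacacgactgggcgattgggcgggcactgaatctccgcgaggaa
The motifs searched on both strands were TTTCCCGC, TTTCGCGC, TTTGCCGC and TTTGGCGC. The distal window held 1 match, TTTCCCGC, that begins 99 bases upstream of the start at base 152 of the window, and the proximal window held 0. Among all 32851 RefSeq windows of this length, 744 (2.26%) held a match. Of the 10 genes 6 had a window in the table, and no match lay in those of Cdkn2b, Cdkn2c, Cdkn1b, Ccnd3 or Ccne1. Cdkn1c, Ccnd1, Ccnd2 and Rb1 are named without sequence. The expression values were made on another build, mm9, so these positions locate the starts and not the measured reads.

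Expression was deposited as FPKM, fragments per kilobase of transcript scaled to the library's fragments, from which sequencing depth cannot be read. Summed FPKM per library ran between 466441 and 825216 in the first table and between 607519 and 1615927 in the second. Bulk RNA mixes cell types, and fewer cells of a type and less RNA per cell cannot be told apart. The labelled epithelium was checked by 5 luminal and 4 basal marker genes. EpiC culture 3 stood at 1.47 FPKM summed over the luminal markers, against 1141 and 1379 in the other two EpiC cultures and 882 to 2116 in CRC cultures. CRC allograft 6C was lowest among the allografts at 36.5. Basal markers summed to 11258 to 15306 FPKM in CRC cultures and to 10.4 to 351 in EpiC cultures. The 7 fibroblast markers summed to 1376 to 4850 FPKM in CRC allografts, 603 to 3609 in EpiC allografts, 27.2 to 49.0 in CRC cultures, where Pdgfrb and Lum averaged below 1, and 3195 to 6225 in EpiC cultures. The 6 macrophage markers found in the table summed to 3102 to 10523 FPKM in CRC allografts, 2777 to 11118 in EpiC allografts and 7.18 to 55.0 over all 6 cultures, where Lyz2, C1qa and C1qb averaged below 1 in both kinds of culture.

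All 10 genes were above 0 in all 16 libraries of the first table. By mean FPKM over these libraries Ccnd1 exceeded 98.3% of all genes and Cdkn2a 98.2%, Cdkn2b, Ccnd3, Cdkn2c and Ccnd2 lay between 90.2% and 91.6%, and Rb1 was lowest with 68.5%. Ccnd1 was the highest of the 10 in 8 libraries and Cdkn2a in 7, and in CRC allograft 6C it was Cdkn1c. The ratio of the highest library to the lowest was 205 for Cdkn1c, 63.6 for Ccnd2 and 36.1 for Cdkn2a. It was 13.5 for Ccnd1 and 11.7 for Cdkn2c, and stayed between 4.68 (Cdkn1b) and 8.28 (Rb1) for the other five.

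**Figure D1:**
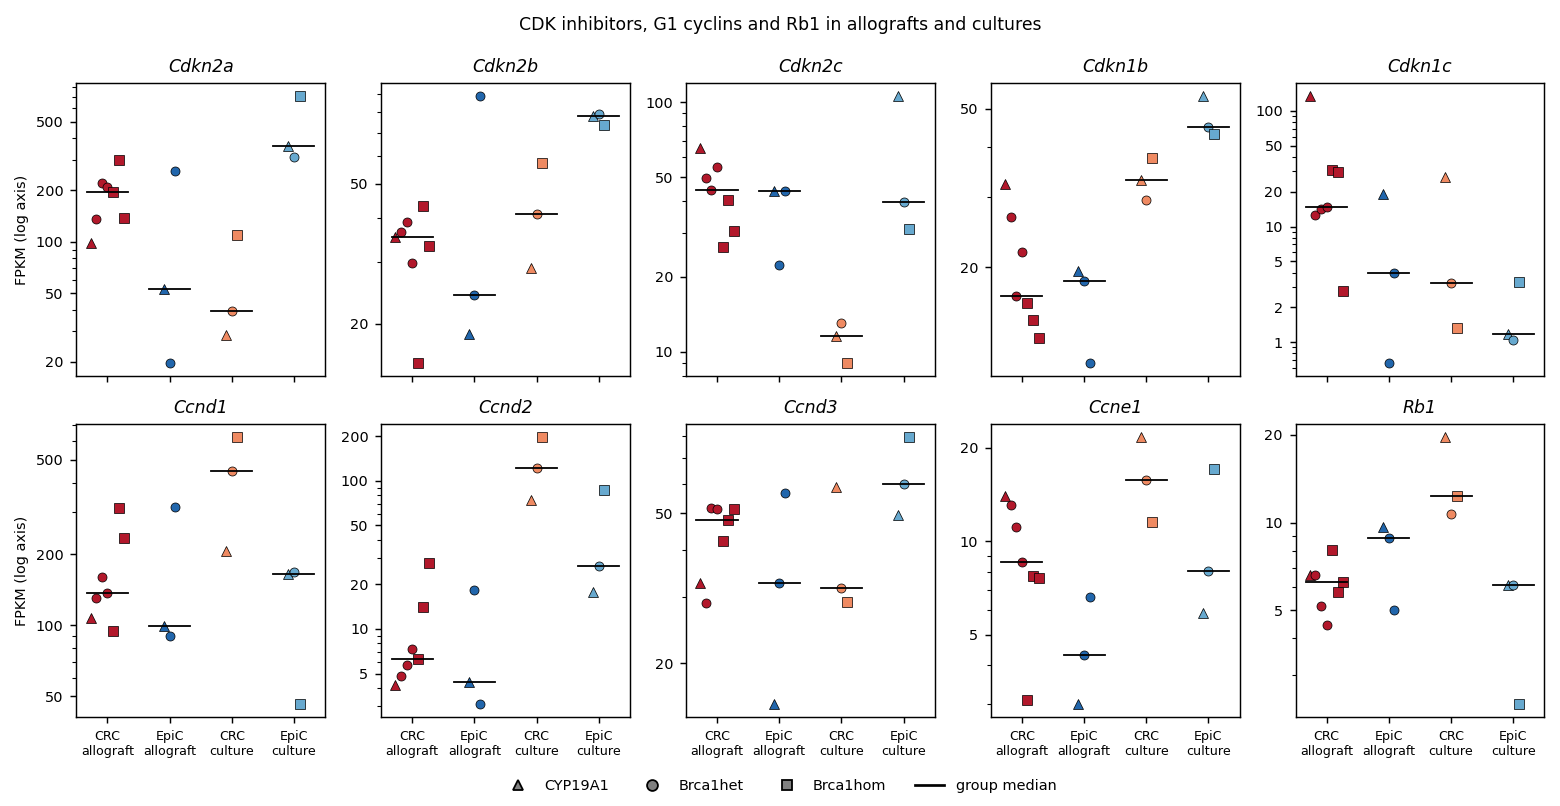
FPKM (log axis) of each gene in every allograft and culture library, with the marker shape giving the genotype and a line at the group median. Cdkn2a is highest in the 3 EpiC cultures (310.7 to 707.2) and Ccnd2 in the 3 CRC cultures and EpiC culture 3, while Cdkn1c in CRC allograft 6C stands apart at 134.9.

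In culture Cdkn2a and Cdkn2c were lower, and Ccnd2 and Rb1 higher, in CRC than in EpiC. The test was limma on log2(FPKM + 1) with genotype in the model, and called genes are those whose p, adjusted by Benjamini-Hochberg over all tested genes, was under 0.05. In this comparison 23.2% of all tested genes were called, and 4 of the 10 genes, 2 in each direction. The median difference of the 10 was 0.103 on the log2 scale and that of all tested genes 0.0427. Groups this small often do not overlap: between CRC and EpiC cultures this was so for 50.4% of all genes that averaged 1 FPKM or more, between CRC allografts and CRC cultures for 41.1%, and between EpiC allografts and EpiC cultures for 28.8%.

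Cdkn2a stood at 28.42, 39.58 and 109.9 FPKM in CRC cultures 1, 2 and 3, against 360.4, 310.7 and 707.2 FPKM in EpiC cultures 1, 2 and 3. Every CRC culture was below every EpiC culture, and in both media the Brca1hom culture was the highest. EpiC culture 3, the Brca1hom one, had almost no luminal marker RNA (1.47 FPKM summed) and the highest fibroblast marker sum, 6225 FPKM. The part of this in its values was not tested. Within genotypes the log2 difference between CRC and EpiC was −3.62 for CYP19A1, −2.94 for Brca1het and −2.68 for Brca1hom. Cdkn2a fell by 3.08 on the log2(FPKM + 1) scale in CRC cultures, an 8.45-fold difference (limma SE 0.236, adjusted p = 0.00692). Cdkn2c, which encodes the INK4 protein p18, had 11.58, 13.08 and 9.014 FPKM in CRC cultures, against 105.8, 39.79 and 31.15 FPKM in EpiC cultures. The CRC values lay close together and below all EpiC values, of which that of the CYP19A1 culture was far the highest. Cdkn2c fell by 2.10 in CRC cultures (limma SE 0.361, adjusted p = 0.0254). Cdkn2b, the gene of p15 beside Cdkn2a, had 28.81, 41.17 and 57.46 FPKM in CRC cultures, against 77.91, 79.22 and 73.79 FPKM in EpiC cultures. Those groups did not overlap either, but the difference of −0.90 was not called (limma SE 0.249, adjusted p = 0.0654). The fibroblast marker sums given above were also lower, and the basal marker sums higher, in every CRC culture than in every EpiC culture, and their part in these differences was not tested. Without CRC culture 2 or EpiC culture 2 the limma adjusted p of Cdkn2a was 0.0612 and 0.0583, and that of Cdkn2c 0.1 and 0.0963, and without CRC culture 1 that of Cdkn2c was 0.0511. With no filter on low values that of Cdkn2c was 0.0578. Cdkn2b was called without CRC culture 3 (0.0342) or EpiC culture 3 (0.035), and with no genotype in the model (0.04). The main fit had 2 residual degrees of freedom. With genotype in the model and 1 culture per genotype and medium, leaving out either culture of a genotype removes that genotype from the difference. Cdkn2a thus differed by −3.147 both without CRC culture 2 and without EpiC culture 2.

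Cdkn1b, the gene of p27, had 33.07, 29.49 and 37.61 FPKM in CRC cultures, against 53.78, 44.87 and 43.1 FPKM in EpiC cultures. The groups did not overlap, and the difference of −0.49 was not called (limma adjusted p = 0.11). Cdkn1c, the gene of p57 and expressed from the maternal copy alone, had 26.69, 3.225 and 1.313 FPKM in CRC cultures, against 1.184, 1.054 and 3.329 FPKM in EpiC cultures. The CYP19A1 CRC culture was high and the other five cultures low, the Brca1hom pair ran the other way, and the difference of 1.27 was not called (limma SE 0.902, adjusted p = 0.334).

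Ccnd2 (cyclin D2) was at 73.9, 122.5 and 198.0 FPKM in CRC cultures, against 17.75, 26.48 and 86.93 FPKM in EpiC cultures. EpiC culture 3 was above CRC culture 1, so that the groups overlapped, but within each genotype CRC was higher, by 2.0, 2.17 and 1.18 on the log2 scale for CYP19A1, Brca1het and Brca1hom. Ccnd2 rose by 1.78 in CRC cultures (limma SE 0.25, adjusted p = 0.018). Ccnd1 (cyclin D1) was at 206.6, 448.8 and 626.0 FPKM in CRC cultures, against 164.4, 168.0 and 46.39 FPKM in EpiC cultures. All CRC cultures were above all EpiC cultures, yet the log2 gap was 0.33 for CYP19A1, 1.41 for Brca1het and 3.73 for Brca1hom, and the fitted difference of 1.82 was not called (limma SE 0.685, adjusted p = 0.119). The Brca1hom gap rests on EpiC culture 3, whose luminal markers summed to 1.47 FPKM, and the part of this was not tested. Ccnd3 (cyclin D3) was at 58.68, 31.67 and 29.07 FPKM in CRC cultures, against 49.42, 59.96 and 79.79 FPKM in EpiC cultures. These groups overlapped and the difference of −0.69 was not called (limma adjusted p = 0.211).

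Ccne1 (cyclin E1, the partner of CDK2) had 21.71, 15.78 and 11.59 FPKM in CRC cultures, against 5.902, 8.045 and 17.12 FPKM in EpiC cultures. The groups overlapped through the Brca1hom pair, and the difference of 0.69 was not called (limma adjusted p = 0.307), but it was without culture 3 of either medium (0.0434 and 0.0436). Rb1 had 19.7, 10.7 and 12.36 FPKM in CRC cultures, against 6.121, 6.097 and 2.379 FPKM in EpiC cultures. Every CRC culture was above every EpiC culture, and Rb1 rose by 1.41 (limma SE 0.291, adjusted p = 0.0361). The calls of Ccnd2 and Rb1 were lost without culture 1 or culture 2 of either medium, and that of Rb1 also without culture 3, with adjusted p up to 0.107 for Ccnd2 and 0.129 for Rb1. The call of Ccnd2 was also lost with no genotype in the model (limma adjusted p = 0.0741) and that of Rb1 with no filter (0.0765).

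**Figure D2:**
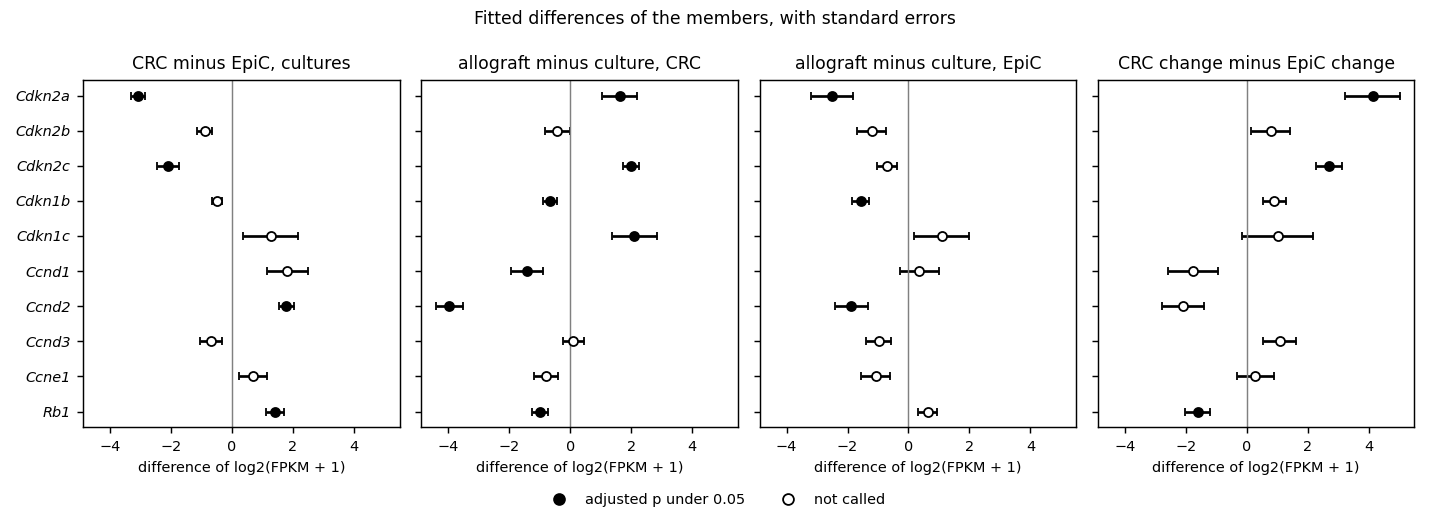
Fitted difference of each gene on the log2(FPKM + 1) scale with its limma standard error, for CRC minus EpiC cultures, allograft minus culture of CRC and of EpiC cells, and the CRC change minus the EpiC change; filled points had an adjusted p under 0.05. Cdkn2a lies at −3.08 in the first panel and at 1.63 and −2.50 in the next pair, on opposite sides of 0.

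When CRC-grown cells were measured as allografts, Cdkn2a, Cdkn2c and Cdkn1c rose relative to CRC cultures, and Cdkn1b, Ccnd1, Ccnd2 and Rb1 fell. These were 7 of the 10 genes, 3 up and 4 down, where 39.6% of all tested genes were called. The median of the 10 was −0.544 and that of all tested genes 0.0392.

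Cdkn2a ran between 97.65 and 300.2 FPKM with a median of 195.8 in the 7 CRC allografts, against 28.42, 39.58 and 109.9 FPKM in CRC cultures. Allograft 6C was below CRC culture 3 and the other six allografts were above all CRC cultures. Cdkn2a rose by 1.63 (limma SE 0.573, adjusted p = 0.0364). Cdkn2c ran between 26.26 and 65.34 FPKM with a median of 44.37 in CRC allografts, against 9.014 to 13.08 FPKM in CRC cultures. All 7 allografts were above all 3 cultures, and Cdkn2c rose by 2.0 (limma SE 0.267, adjusted p = 5.05e-05). Cdkn2b ran between 15.43 and 43.39 FPKM with a median of 35.31 in CRC allografts and overlapped the 28.81 to 57.46 FPKM of CRC cultures, and its difference of −0.42 was not called (limma adjusted p = 0.426).

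Cdkn1c had 134.9 FPKM in allograft 6C, 12.68, 14.26 and 14.65 in 10B, 10C and 11C, and 31.15, 29.74 and 2.754 in 1, 2 and 12, against 26.69, 3.225 and 1.313 FPKM in CRC cultures. The 3 Brca1het allografts were alike, 6C was high and 12 low, and the CYP19A1 culture lay inside the range of the allografts. Cdkn1c rose by 2.10 (limma SE 0.736, adjusted p = 0.0355), and by 1.83 without 6C (adjusted p = 0.0846). Cdkn1b ran between 13.26 and 32.32 FPKM with a median of 16.96 in CRC allografts, against 29.49 to 37.61 FPKM in CRC cultures, overlapping through 6C. It fell by 0.66 (limma SE 0.236, adjusted p = 0.0381).

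Ccnd2 had 4.19 FPKM in allograft 6C, 4.789, 5.717 and 7.368 in 10B, 10C and 11C, and 6.223, 14.03 and 27.76 in 1, 2 and 12, against 73.9, 122.5 and 198.0 FPKM in CRC cultures. Every allograft was below every culture, and Ccnd2 fell 15.6-fold, by 3.97 on the log2 scale (limma SE 0.441, adjusted p = 9.72e-06). Ccnd1 ran between 94.23 and 312.4 FPKM with a median of 136.9 in CRC allografts, against 206.6 to 626.0 FPKM in CRC cultures. Allografts 2 and 12 were above CRC culture 1, and Ccnd1 fell by 1.41 (limma SE 0.524, adjusted p = 0.0462). Ccnd3 ran between 28.99 and 51.56 FPKM with a median of 47.96 in CRC allografts and overlapped the 29.07 to 58.68 FPKM of CRC cultures, with a difference of 0.10 (limma adjusted p = 0.835). Ccne1 ran between 3.079 and 14.02 FPKM with a median of 8.619 in CRC allografts, against 11.59 to 21.71 FPKM in CRC cultures, with a difference of −0.80 (limma adjusted p = 0.119). Rb1 ran between 4.459 and 8.035 FPKM with a median of 6.252 in CRC allografts, all below the 10.7 to 19.7 FPKM of CRC cultures, and fell by 0.98 (limma SE 0.259, adjusted p = 0.00826). Cdkn2c, Ccnd2 and Rb1 kept their calls in 16 of 16 alternative settings. Without CRC culture 2, CRC culture 3 or CRC allograft 10C the calls of the other four, Cdkn2a, Cdkn1b, Cdkn1c and Ccnd1, were lost, with adjusted p up to 0.156 for Cdkn2a, 0.352 for Cdkn1b, 0.231 for Cdkn1c and 0.27 for Ccnd1. Leaving out CRC culture 1 or allograft 6C, 11C or 2 also ended the call of Cdkn2a, leaving out 2 or 12 that of Cdkn1b, leaving out 6C, 11C, 1 or 2 that of Cdkn1c, and leaving out 6C, 10B, 11C or 1 that of Ccnd1. With CRC allografts 10B and 10C as 1 sample Cdkn2a (limma adjusted p = 0.0531) and Ccnd1 (0.0701) were not called, with no genotype in the model Cdkn1c was not (0.167), and with no filter none of these 3 was (0.0645 to 0.0776). The sums of the macrophage and fibroblast markers were higher in every CRC allograft than in every CRC culture. So were those of 4 endothelial markers (27.1 to 96.5 FPKM, against 0.582 to 1.55 FPKM). Luminal marker sums were lower in every CRC allograft, at 36.5 to 491 FPKM, against 882 to 2116 FPKM in CRC cultures. Basal marker sums were lower too, at 3.27 to 134 FPKM, against 11258 to 15306 FPKM. The part of these cell types in the differences was not tested.

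Allografts of EpiC-grown cells had less Cdkn2a, Cdkn1b and Ccnd2 than EpiC cultures. These were 3 of the 10 genes, all down, where 14.2% of all tested genes were called. The median of the 10 was −1.03 and that of all tested genes 0.00783. Cdkn2a had 52.85, 19.6 and 258.2 FPKM in EpiC allografts 7B, 4C and 5A, against 360.4, 310.7 and 707.2 FPKM in EpiC cultures. The groups did not overlap, although 5A was well above the other two allografts, and Cdkn2a fell by 2.50 (limma SE 0.69, adjusted p = 0.028). Cdkn1b had 19.56, 18.45 and 11.5 FPKM in EpiC allografts, against 53.78, 44.87 and 43.1 FPKM in EpiC cultures. It lay lower in all allografts and fell by 1.57 (limma SE 0.285, adjusted p = 0.00223), a call kept in 11 of 11 alternative settings. Ccnd2 had 4.405, 18.26 and 3.112 FPKM in EpiC allografts, against 17.75, 26.48 and 86.93 FPKM in EpiC cultures. Allograft 4C was above EpiC culture 1, and Ccnd2 fell by 1.87 (limma SE 0.531, adjusted p = 0.0316). Without any 1 of the EpiC cultures or without 7B the calls of Cdkn2a and Ccnd2 were lost, with adjusted p up to 0.112 and 0.102; Cdkn2a also lost it without 4C (0.0632) and Ccnd2 without 5A (0.081), and both with no filter (0.0528 and 0.0553).

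The other seven genes were not called between EpiC allografts and EpiC cultures. Cdkn2b had 18.71, 24.16 and 89.06 FPKM in EpiC allografts, against 73.79 to 79.22 FPKM in EpiC cultures, so that 5A was above all cultures and the other two below. Without 5A its difference was −1.81 (limma adjusted p = 0.00787), against −1.20 with it (0.117). Cdkn2c had 43.88, 22.25 and 44.01 FPKM in EpiC allografts and overlapped the 31.15 to 105.8 FPKM of EpiC cultures. Ccnd1 had 99.69, 89.62 and 315.1 FPKM in EpiC allografts, again highest in 5A, against 46.39 to 168.0 FPKM in EpiC cultures. Ccnd3 had 15.61, 32.73 and 56.76 FPKM in EpiC allografts, against 49.42 to 79.79 FPKM in EpiC cultures, and its difference of −0.98 (limma adjusted p = 0.134) was called without 5A (0.0342). Cdkn1c at 19.24, 0.6583 and 3.972 FPKM, Ccne1 at 2.995, 4.307 and 6.607 FPKM and Rb1 at 9.664, 8.862 and 5.011 FPKM in 7B, 4C and 5A overlapped EpiC cultures. Luminal markers summed to 880 FPKM in 5A, against 186 to 214 in 7B and 4C, mostly through Krt8 at 719, against 57.0 and 76.9. Krt18 was 153 in 5A, against 121 and 120, Epcam 1.49, against 4.0 and 3.01, and Cdh1 5.98, against 3.24 and 13.9. Macrophage markers summed to 11118 FPKM in 5A, against 4384 and 2777, and fibroblast markers to 603, against 3609 and 2107. Macrophage markers were higher in every EpiC allograft than in every EpiC culture. Fibroblast markers summed to 603 to 3609 FPKM in EpiC allografts, against 3195 to 6225 FPKM in EpiC cultures. EpiC culture 3, with luminal markers at 1.47 FPKM, had the highest Cdkn2a and Ccnd2 of the EpiC cultures. It was Brca1hom, as no EpiC allograft was. The part of these cell types and of genotype in these values was not tested.

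The change between culture and allograft differed between the media for Cdkn2a, Cdkn2c and Rb1. In the test of the CRC change minus the EpiC change 3 of the 10 genes were called, where 12.2% of all tested genes were. The difference was 4.13 for Cdkn2a (limma SE 0.899, adjusted p = 0.00847), which rose in CRC allografts and fell in EpiC allografts. It was 2.71 for Cdkn2c (limma SE 0.419, adjusted p = 0.000863), which rose in CRC allografts and lay at −0.71 without a call in EpiC allografts. It was −1.61 for Rb1 (limma SE 0.407, adjusted p = 0.0199), which fell in CRC allografts and lay at 0.63 without a call in EpiC allografts. Cdkn2a and Cdkn2c kept this call in 22 of 22 alternative settings, and Rb1 lost it without CRC culture 3 (adjusted p = 0.0746). The change of Ccnd2 was more negative for CRC by 2.10, which was not called (limma adjusted p = 0.0645; 0.0123, 0.0447 and 0.0479 without EpiC allograft 5A, CRC allograft 1 or CRC allograft 12), and that of Ccnd1 by 1.76 (0.191). For Ccnd3 the difference of 1.08 was not called (0.219), but it was without CRC culture 1 (0.0418). Each difference rests on the same 6 cultures as the comparison within culture.

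Between allografts of CRC-grown and EpiC-grown cells 0 of the 10 genes were called by limma, where 0.00833% of all tested genes were, and 3 of the 10 had an unadjusted p under 0.05, as had 1011 of 11999 tested genes. Cdkn2a ran between 97.65 and 300.2 FPKM in CRC allografts, against 52.85, 19.6 and 258.2 FPKM in EpiC allografts, and 5A lay inside the CRC range. Its difference was 1.21 (limma SE 0.708, adjusted p = 0.666). Cdkn1c differed by 2.48 (limma SE 0.701, unadjusted p = 0.00552, adjusted p = 0.385), with 2.754 to 134.9 FPKM in CRC allografts, against 0.6583 to 19.24 FPKM in EpiC allografts. Ccne1 differed by 1.19 (limma unadjusted p = 0.00732, adjusted p = 0.421), with 3.079 to 14.02 FPKM in CRC allografts, against 2.995 to 6.607 FPKM in EpiC allografts. Cdkn1b differed by 0.58 (limma unadjusted p = 0.0456, adjusted p = 0.585). All of these groups overlapped, as they did for most genes. Only 2.38% of all genes that averaged 1 FPKM or more did not overlap between CRC and EpiC allografts.

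Set against each other within a library, Cdkn2 gene and D cyclin transcripts gave the cultures opposite balances. The Cdkn2 sum is not a sum of INK4 transcripts, since Cdkn2a holds an unknown share of p19Arf. FPKM is per length, so levels of different genes can be added, and the sum of Cdkn2a, Cdkn2b and Cdkn2c was divided by that of Ccnd1, Ccnd2 and Ccnd3. This ratio was 0.203, 0.156 and 0.207 in CRC cultures 1, 2 and 3, against 2.35, 1.69 and 3.81 in EpiC cultures 1, 2 and 3. The CRC cultures held 68.81 to 176.4 FPKM of Cdkn2 and 339.2 to 853.0 of D cyclin transcripts, and the EpiC cultures 429.7 to 812.1 and 213.1 to 254.5. The allografts lay between these extremes, at 0.643 to 1.66 with a median of 1.38 for CRC, against 0.964, 0.469 and 1.04 for EpiC allografts 7B, 4C and 5A. No test was made of this ratio.

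**Figure D3:**
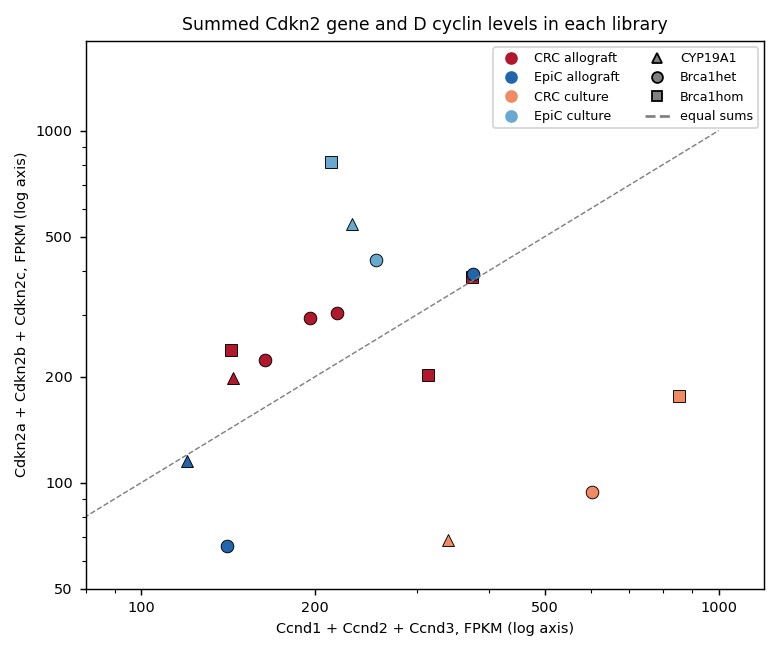
Summed FPKM of Cdkn2a (p16Ink4a and p19Arf together), Cdkn2b and Cdkn2c (vertical, log axis) against summed D cyclin FPKM (horizontal, log axis) in each allograft and culture library, with a dashed line where the sums are equal. The 3 EpiC cultures lie above the line (ratios 1.69 to 3.81), the 3 CRC cultures far below it (0.156 to 0.207), and the allografts around it.

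Ccnd1 made up most of the D cyclin transcripts nearly everywhere, and Ccnd2 had a sizeable share in culture. Ccnd2 took 21.8%, 20.3% and 23.2% of D cyclin FPKM in CRC cultures 1, 2 and 3, against 7.66%, 10.4% and 40.8% in EpiC cultures 1, 2 and 3. EpiC culture 3, whose luminal markers summed to 1.47 FPKM, was the 1 library in which Ccnd1, at 21.8%, was not the leading D cyclin. In CRC allografts Ccnd2 took 2.62% to 8.86%, with a median of 3.75%, and in EpiC allografts 7B, 4C and 5A 3.68%, 13.0% and 0.83%. In the second table its share was at most 1.73%. Of the summed FPKM of the 3 Cdkn2 genes Cdkn2a, with p19Arf included, took 49.2% to 82.4% in CRC allografts, 29.7% to 66.0% in EpiC allografts, 41.3% to 62.3% in CRC cultures and 66.2% to 87.1% in EpiC cultures.

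**Figure D4:**
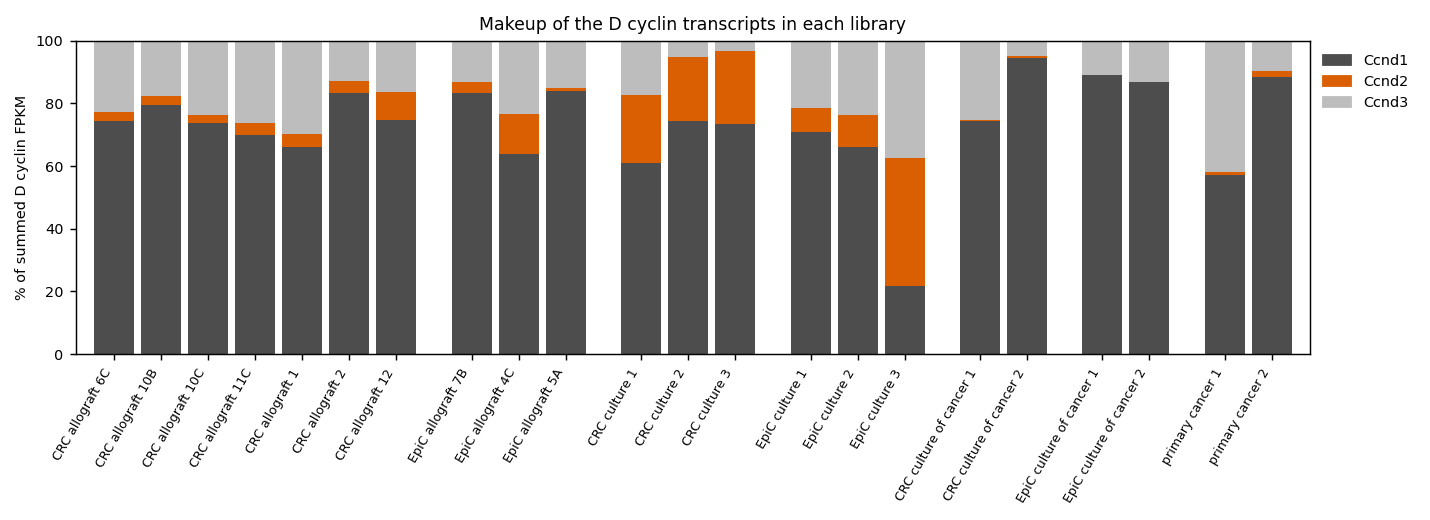
Share of Ccnd1, Ccnd2 and Ccnd3 in the summed D cyclin FPKM of each of the 22 libraries, in percent. The Ccnd2 part is 20.3% to 23.2% in the 3 CRC cultures and largest, 40.8%, in EpiC culture 3.

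Genotypes were compared where a medium held more than 1 of them. Between Brca1hom and Brca1het CRC allografts limma called 0 of the 10 genes and 0% of all tested genes, with 2 of the 10 and 1246 genes at an unadjusted p under 0.05. Cdkn2c had 26.26, 40.71 and 30.61 FPKM in Brca1hom allografts 1, 2 and 12, against 49.74, 44.37 and 55.16 FPKM in Brca1het allografts 10B, 10C and 11C. The difference of −0.62 had an unadjusted p of 0.0313 (limma adjusted p = 0.44). Ccne1 had 3.079, 7.73 and 7.619 FPKM in Brca1hom allografts, against 13.06, 11.1 and 8.619 FPKM in Brca1het allografts. Allograft 1 was the lowest, and the difference of −0.80 had an unadjusted p of 0.0499 (limma adjusted p = 0.478). Ccnd2 was higher in Brca1hom allografts 2 and 12 (14.03 and 27.76 FPKM) than in the 3 Brca1het allografts (4.789 to 7.368 FPKM), and allograft 1 (6.223) lay among them.

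CYP19A1 and Brca1het libraries were compared with medium in the model. In cultures limma called 0 of the 10 genes and 0% of all tested genes, with 1 of the 10 (Ccnd2) and 628 genes at an unadjusted p under 0.05. In allografts it called 0 of the 10 and 0% of all tested genes, with 1 of the 10 and 960 genes at an unadjusted p under 0.05. That gene was Cdkn1c, with 134.9 and 19.24 FPKM in CYP19A1 allografts 6C and 7B, against 12.68, 14.26 and 14.65 FPKM in the Brca1het CRC allografts and 0.6583 and 3.972 FPKM in the Brca1het EpiC allografts. The CYP19A1 allograft was the higher within each medium. The difference of 3.02, or 8.1-fold, had the third smallest p of all genes tested (limma SE 0.424, unadjusted p = 9.14e-05, adjusted p = 0.319), and was called without EpiC allograft 5A (adjusted p = 0.0416). In culture the CYP19A1 CRC library, at 26.69 FPKM, was likewise above the Brca1het CRC library at 3.225, while the EpiC libraries stood at 1.184 for CYP19A1 and 1.054 for Brca1het.

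In the cancers and the cultures grown from them no member was called. The filter of a mean of 1 FPKM left 9 of the 10 genes, since Cdkn1c ran between 0.02893 and 2.334 FPKM. Limma called 0 of the 9 between CRC cultures of cancers and cancers, where 0.889% of all tested genes were called, 0 of the 9 between EpiC cultures of cancers and cancers (0.677%), and 0 of the 9 between the kinds of culture (0.00815%). In each comparison 0 of the 9 had an unadjusted p under 0.05. With 2 libraries a group, each standard error was at least 0.54 on the log2 scale. CRC cultures of cancers and cancers did not overlap for 29.8% of all genes that averaged 1 FPKM or more. For EpiC cultures of cancers and cancers this share was 39.1%.

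Cdkn2a had 169.5 and 387.5 FPKM in the CRC cultures of cancers 1 and 2, 153.8 and 185.0 FPKM in the EpiC cultures, and 155.2 and 122.6 FPKM in the cancers. All 6 values lay above 100, and the CRC culture of cancer 2 was highest. That library stands apart as a whole, with a summed FPKM of 1615927, against 607519 to 710511 in the other five, and the fewest genes at 1 FPKM or more (10658). Its part in these values was not tested, and leaving it out added no call among the 9 genes. Cdkn2b had 12.06 and 47.19 FPKM in the CRC cultures, 19.3 and 36.12 FPKM in the EpiC cultures, and 15.17 and 62.25 FPKM in the cancers, so that the material of cancer 2 was the higher in every group. Cdkn2c had 15.32 and 8.619 FPKM in the CRC cultures, 9.738 and 13.11 FPKM in the EpiC cultures, and 22.47 and 18.25 FPKM in the cancers, where both values were above all cultures. Cdkn1b had 39.78 and 6.571 FPKM in the CRC cultures, 22.91 and 43.2 FPKM in the EpiC cultures, and 30.1 and 18.61 FPKM in the cancers. Its lowest value belonged to the CRC culture of cancer 2, which also had the lowest Rb1.

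Ccnd1 had 164.4 and 354.4 FPKM in the CRC cultures, 376.9 and 205.1 FPKM in the EpiC cultures, and 79.43 and 165.3 FPKM in the cancers. The differences of 1.07 for CRC and 1.27 for EpiC cultures from the cancers were not called (limma adjusted p = 0.809 and 0.948), and each culture was above its own cancer. Ccnd2 had 0.8378 and 2.304 FPKM in the CRC cultures, 0.2033 and 0.07808 FPKM in the EpiC cultures, and 1.19 and 3.226 FPKM in the cancers. It was near the bottom of the scale in all 6 libraries and lowest in the EpiC cultures (difference −1.42 from the cancers, limma adjusted p = 0.785). Ccnd3 had 55.83 and 18.85 FPKM in the CRC cultures, 46.42 and 31.05 FPKM in the EpiC cultures, and 58.5 and 18.33 FPKM in the cancers, with cancer 1 the higher in every group. Ccne1 had 16.82 and 20.17 FPKM in the CRC cultures, 14.24 and 10.12 FPKM in the EpiC cultures, and 5.299 and 11.27 FPKM in the cancers. Rb1 had 5.153 and 1.748 FPKM in the CRC cultures, 3.984 and 2.342 FPKM in the EpiC cultures, and 16.47 and 2.455 FPKM in the cancers, again with cancer 1 the higher in every group. The ratio of Cdkn2 to D cyclin sums was 0.891 and 1.18 in the CRC cultures, 0.432 and 0.991 in the EpiC cultures, and 1.39 and 1.09 in the cancers. Macrophage markers summed to 671 and 1062 FPKM in the cancers and to at most 36.3 in their cultures, and their part in these values was not tested.

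**Figure D5:**
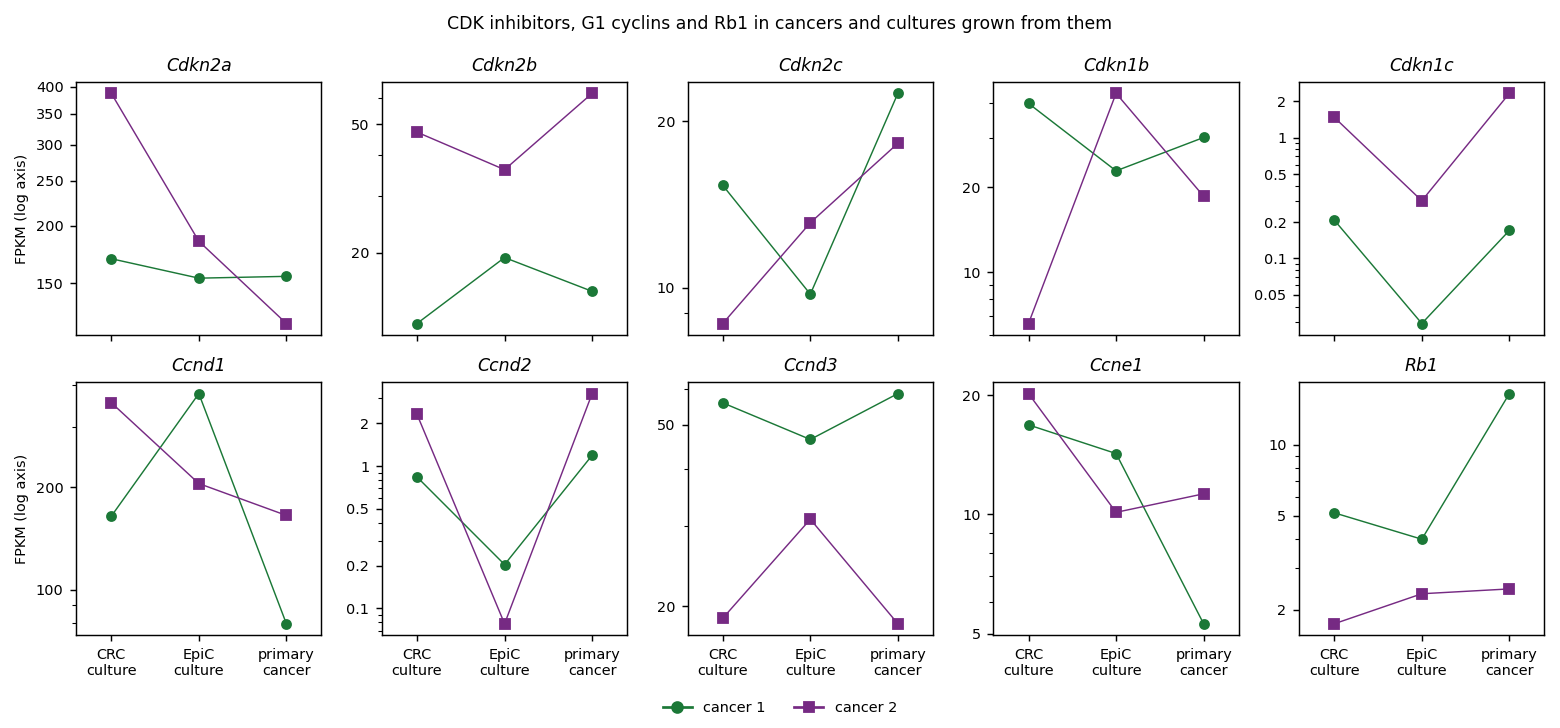
FPKM (log axis) of each gene in the CRC culture, the EpiC culture and the primary cancer, with a line for each of the 2 cancers. Cdkn2b and Cdkn1c are higher, and Ccnd3 and Rb1 lower, for cancer 2 in every group. How many of all genes keep such an order was not counted, and none of the genes shown was called between groups.

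Genes around these 10 in the pathway were followed as lists, whose counts stand beside the 23.2% of all tested genes called between CRC and EpiC cultures, 39.6% between CRC allografts and CRC cultures and 14.2% between EpiC allografts and EpiC cultures. Among 11 other CDK inhibitors and factors of their turnover, 4 rose and none fell in CRC relative to EpiC cultures, with a median of 0.36. Cdkn1a, which encodes the p53-induced inhibitor p21, stood at 221 to 246 FPKM in CRC cultures, against 14.8 to 36.5 FPKM in EpiC cultures, a rise of 3.39 (limma SE 0.316, adjusted p = 0.00979). The other three were Cdkn3, a phosphatase of CDK2, at 1.00, Fbxw7, which marks cyclin E for degradation, at 0.99, and Rnf123, a ligase for p27, at 0.90. In CRC allografts relative to CRC cultures 1 of the 11 rose, Skp2, and 3 fell, with Cdkn1a at 25.5 ± 12.1 FPKM (SD, n = 7) and a fall of 3.33 (limma SE 0.359, adjusted p = 7.28e-06). In EpiC allografts relative to EpiC cultures Fbxw7 rose by 1.25 and none of the 11 fell. The CRC change of Cdkn1a minus its EpiC change was −4.44 (limma SE 0.563, adjusted p = 0.000177), opposite in sign to that of Cdkn2a.

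Among 16 tested genes of the RB family and the E2F factors, CRC cultures had 1 higher and 1 lower than EpiC cultures. E2f1, the activator that RB restrains, averaged 3.23 ± 1.54 FPKM in CRC cultures and 13.9 ± 1.81 FPKM in EpiC cultures (SD, n = 3 each), and fell by 1.86 (limma adjusted p = 0.0124), while Mybl2, itself an E2F target, rose by 0.81. In CRC allografts relative to CRC cultures E2f1 rose by 1.53 and E2f4 by 1.63, and in EpiC allografts relative to EpiC cultures E2f4 rose by 1.33. Of 25 E2F target genes of S phase entry, CRC cultures had 2 higher and 3 lower than EpiC cultures, with a median of −0.02. The ribonucleotide reductase subunits Rrm2 (1.22) and Rrm1 (1.14) rose, and Cdt1 (−1.29), Gins2 (−1.25) and Tyms (−0.85), which serve origin licensing, replication and thymidylate synthesis, fell. These 5 of 25 are near the share over all tested genes. In CRC allografts 4 of the 25 rose and 3 fell relative to CRC cultures, and in EpiC allografts 1 rose and 1 fell relative to EpiC cultures. Among the cancers and their cultures 23 of the 25 had a positive difference in CRC cultures of cancers and 25 of the 25 in EpiC cultures of cancers relative to the cancers. Their medians were 0.71 and 1.06, against −0.06 and 0.08 over all tested genes, and limma called 0 of the 25 in either comparison, with 3 and 4 of them at an unadjusted p under 0.05. How many of all tested genes had a positive difference was not counted. Macrophage and fibroblast marker sums were higher in both cancers than in any of their cultures, and the part of these cells in the differences was not tested.

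Of 9 tested CDK2, CDK4 and CDK6 kinases and partners, 1 (Cdk6, a difference of 0.97) rose in CRC relative to EpiC cultures. Cdk6 ran between 2.96 and 69.4 FPKM with a median of 4.52 in CRC allografts, against 5.67 ± 0.605 FPKM (SD, n = 3) in CRC cultures. Among 22 tested Polycomb genes and other regulators of the Cdkn2a locus, the culture comparison called 2 up and 3 down in CRC. The PRC2 subunits Eed and Suz12 rose by 0.79 and 0.72, and Tbx3, a T-box repressor of p19Arf, fell by 1.18. In CRC allografts 2 of the 22 rose and 7 fell relative to CRC cultures, with Tbx3 up by 1.41 and Ets2, an ETS factor, down by 1.37, 9 of 22 in all and near the share over all tested genes. In EpiC allografts 2 of the 22 fell relative to EpiC cultures, among them Id1, an inhibitor of helix-loop-helix factors, by 1.49. Of 12 tested mitogen-responsive genes the comparison of CRC with EpiC cultures called 2 up and 3 down in CRC. Fos, a subunit of AP-1, rose by 3.32 and Fosl1, another, fell by 1.92. In CRC allografts relative to CRC cultures 4 of 13 rose and 3 fell, with Fosl1 up by 2.78 and Fos down by 3.31, and in EpiC allografts relative to EpiC cultures 3 of 13 rose and 2 fell. These lists were assembled with earlier results of these data known, and limma called 0 of their genes between CRC and EpiC allografts, where 11 of 104 had an unadjusted p under 0.05. It also called 0 of them in each comparison of genotypes, with 10 at an unadjusted p under 0.05 in each, and 0 in the comparisons of cancers and their cultures, with 2 to 13 of 101.

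Genes next to Cdkn2a and Cdkn1c on the chromosome were read beside them. In the gene order of GRCm38.p6 Mtap, a purine salvage enzyme, lies next to Cdkn2a. Mtap averaged 75.2 FPKM in CRC cultures and 94.9 FPKM in EpiC cultures, and its difference of −0.34 was not called (limma adjusted p = 0.215). Its differences between allograft and culture were 0.18 for CRC and −0.32 for EpiC, also not called. Cdkn1c rose in CRC allografts relative to CRC cultures, a call lost in the settings given above. Its imprinted neighbours Kcnq1 (−1.37), Slc22a18 (−1.84) and Phlda2 (−1.49) fell, with limma adjusted p of 0.0442, 0.000106 and 0.008. Slc22a18 and Phlda2 were low, averaging 0.406 and 0.25 FPKM in CRC allografts, against 4.4 and 2.64 FPKM in CRC cultures. Among the other tested genes of the 5 on either side, Cd81 and Cars fell and Tspan32 rose. Tssc4, Nap1l4 and Tnfrsf26 were not called. Of 10 tested genes of this domain and other imprinted growth genes, 2 rose and 3 fell in that comparison. The 2 were H19, up by 2.56, and Mest, up by 3.76, and Mest also rose in EpiC allografts, by 3.25.

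The genes most like Cdkn2a, Cdkn1c and Ccnd2 were sought by the root mean square of log2 differences over the 16 libraries of the first table, after each gene's own mean was removed. For Cdkn2a, whose own root mean square was 1.37, BC005764 at 0.70 was among the closest 2 of 12325 genes. For Ccnd2 (1.74) the closest were Lgr4 at 0.843 and Slc7a3 at 0.848. For Cdkn1c (1.78) they were Adam22 at 1.16 and Bves at 1.21, a poorer likeness than those of the other two.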

How the data were processed

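The authors deposited FPKM per gene in a pair of tables, which were normalised separately, so each test stayed within 1 table. FastQC, Trim Galore, TopHat, Cufflinks and build mm9 are named, without versions, in the submitters' processing notes; the annotation is not given in the sources used here, and 0 columns belonged to no known sample. Depth is unknown from FPKM. The members and lists were chosen with earlier results of these data known. Linear models were fitted in limma 3.58.1 (R 4.3.3; trended eBayes) to log2(FPKM + 1) of all genes averaging 1 FPKM or more, and p was adjusted over all of them with a threshold of 0.05; this scale understates changes of low genes. The code was checked on simulated data. All 10 members are named; of other genes, list members by their calls and fitted size, neighbours by gene order, and the 2 genes with the smallest root mean square difference from a member; a few genes so chosen are not reported here. Tables were handled with Python 3.11.15 and pandas 2.3.3. The settings varied were the pseudocount (0.1), the low-value filter (none, or 5 FPKM), the scaling (median ratios), the libraries (each left out, Brca1het allografts by themselves, or CRC allografts 10B and 10C averaged), the genotype and medium terms, and a replicate block. The second table's titles give each cancer and the cultures grown from it 1 number, which pairs them; deviations of paired libraries from their group means correlated across genes at −0.0555 (CRC culture with cancer), −0.113 (EpiC culture with cancer) and 0.242 (CRC with EpiC culture). Many values of the second table end in the digit that a mean of 2 rounded values gives, so its libraries may already be averages.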

Additional observations from a re-analysis of the deposited data

Results flagged for a closer look

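Among the 10 genes in the 7 CRC allografts, a pair of values exceeded the critical gap of a Dixon test made on FPKM. Its rate of about 1 in 20 groups by chance holds for normally distributed values, which FPKM need not be. The gap was not computed on the log scale of the other tests, so neither value is shown to be an outlier. Cdkn1c was 134.9 FPKM in CRC allograft 6C, with a gap to the next library of 0.785 of the whole range, against a critical value of 0.568. Ccnd2 was 27.76 FPKM in CRC allograft 12, with a gap of 0.583 of the range. CRC allograft 6C also had the lowest summed luminal markers of the allografts, 36.5 FPKM. The change from culture to allograft differed between CRC and EpiC cells, by limma's interaction test, for Cdkn2a (4.13 on the log2 scale), Cdkn2c (2.71) and Rb1 (−1.61).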

How the results depend on the processing

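The number of the 10 genes called changed as follows. With no filter on low values it was 2 for CRC against EpiC cultures (4 with it), 4 for CRC allografts against CRC cultures (7) and 1 for EpiC allografts against EpiC cultures (3). Leaving out each library in turn gave 0 to 5, 3 to 6 and 1 to 4 in the same order, 2 to 4 for the difference of these changes (3), and 0 to 1 for CYP19A1 against Brca1het allografts (0), where Cdkn1c was called without EpiC allograft 5A. For CRC against EpiC cultures the 0 came without CRC culture 2 or EpiC culture 2. No value among the 10 genes reversed in sign with a call. Over all genes, calls between CRC and EpiC cultures numbered 2741, and 159 to 2091 with a culture left out; between CRC and EpiC allografts 1, and 0 to 47; between EpiC allografts and EpiC cultures 1750, and 997 to 2200; for the difference of changes 1506, and 760 to 2243. With the cancer as a replicate block, 0 of the 9 genes tested were called in the second table, as without it, and calls over all genes were 58 for CRC cultures of cancers against cancers (109 without the block), 29 for EpiC cultures (83) and 0 for CRC against EpiC cultures of cancers (1); with no filter they were 284, 284 and 0. Rescaling by median ratios shifted the median of all genes by −0.101 for EpiC cultures of cancers against cancers and by 0.112 for CRC against EpiC cultures of cancers. CYP19A1 against Brca1het cultures could not be fitted with a library left out, since no residual degrees of freedom remained. The cause of these shifts was not tested. FPKM carry no depth, so the counting error of low values such as Ccnd2 in the cancers is unknown, and groups of 2 or 3 libraries leave wide errors.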
